A study of Mus musculus with 16 samples.

Results

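RNA carried by polysomes was compared with unfractionated RNA in tBuHQ-treated livers of Perk wild-type mice. The comparison rests on 4 of the 16 arrays of the series, 2 of polysome RNA and 2 of unfractionated RNA, chosen by their labels and not by any measured value. The mice were 3 to 6 months old, and their livers had been perfused once through with a buffer containing calcium (0.1 mM CaCl2). The 4 arrays used here came from wild-type (Perk+/+) littermates perfused with tBuHQ. This compound, a butylated hydroquinone whose isomer the labels give in 2 ways, blocks calcium uptake into the endoplasmic reticulum. The other 12 arrays, in 6 groups of 2, held the same 2 fractions from untreated wild-type liver and from untreated and tBuHQ-treated liver of Alb/Cre Perk-/- littermates, in which albumin-driven Cre deletes Perk in hepatocytes while other liver cells keep it. The RNA on an array was a pool from 2 livers. The sources used here do not say whether polysome and unfractionated arrays with the same number share livers.

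A ribosome leaves its mRNA at the end of each round of translation, so the number of ribosomes on an mRNA depends on how often translation starts and how long the coding sequence is. In a sucrose gradient, mRNAs carrying several ribosomes sediment ahead of free mRNA, nuclear RNA and mRNAs bound by 1 ribosome. PERK, the product of Eif2ak3, is a kinase in the membrane of the endoplasmic reticulum that phosphorylates eIF2 alpha when protein folding there fails. This slows initiation on most mRNAs, while some mRNAs with upstream reading frames, such as that of the transcription factor ATF4, keep being translated. The polysome part here came from a 20 to 47% gradient, and the unfractionated RNA was taken from the detergent-containing supernatant of the homogenate before the gradient.

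The values are array signals of probe sets, each of which reads part of a transcript, and some of which may match other transcripts as well. Every array had been scaled to the same trimmed mean of 150. A gene described below as higher in polysome RNA therefore held a larger share of the signal there than in unfractionated RNA, and nothing is measured about the total amount of mRNA on polysomes. Of 18194 genes with a probe set of their own symbol, 10916 passed the filter on low signal and were tested, and 7278 lay below it. Differences are on the log2(signal + 16) scale, which understates those of dim genes, and absent spike-in RNAs read up to 15.1, below which a signal has no exact size.

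Some arrays stood apart. The second polysome array had a ratio of 3' to 5' signal of 5.60 for Gapdh, where the remaining 15 ranged from 0.735 to 0.859. The same ratio was 1.98 (range of the others 1.21 to 1.37) for beta-actin and 16.3 (0.900 to 1.29) for a spiked-in bacterial RNA. What this array adds to each result was not tested further than by leaving it out, and counts without it are given where they differ. The correlation across probe sets was 0.964 between the unfractionated and 0.943 between the polysome arrays, and 0.932 to 0.941 between arrays of different fractions. The brightest probe set read 29177 and 27094 on the unfractionated and 19166 and 19103 on the polysome arrays. The column names of a z score table that the authors deposited disagree with the sample titles. By value (r = 0.999996 over 18697 probe sets), all 16 columns hold an array of the same genotype and fraction but of the other treatment. By those column names the 4 arrays described here would be untreated livers. The direction between the fractions does not depend on this, but the words treated and untreated below follow the sample titles.

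The RNAs that should be left out of polysomes were examined first, as a check of the fractions. A probe set for the B1 repeat, a short repeat found in introns and other noncoding RNA, had signals of 945 and 854 on the unfractionated arrays against 96.0 and 104 on the polysome arrays. Over all 8 arrays of a fraction it read 593 to 1112 in unfractionated and 85.8 to 132 in polysome RNA, so the fractions did not overlap. Malat1, a nuclear long noncoding RNA of chromosome 19, read 845 and 938 in unfractionated and 174 and 9.19 in polysome RNA. Its log2 difference was -3.71 ± 0.79 (2 against 2 arrays, limma adjusted p = 0.00576). Here and below ± is the SE, with the spread estimated over all 16 arrays. This was the largest decrease among named genes, but the second polysome array lay under the absent spike-in level. Neat1, the RNA around which paraspeckles form in the nucleus, read 744, 1208, 71.9 and 103 in the same order, a difference of -3.24 ± 0.39.

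The host RNAs of small nucleolar RNAs were lower as well. Gas5 read 2080 and 1592 in unfractionated and 77.1 and 264 in polysome RNA (-3.51 ± 0.57), Snhg8 read 790, 682, 48.9 and 78.3 (-3.26 ± 0.39), and Snhg6 read 314, 299, 19.8 and 44.0 (-2.80 ± 0.33). The polysome arrays lay below the unfractionated arrays for each of them. Of 21 noncoding RNAs tested from a list of 36, 11 were lower and 0 higher in limma's test, where over all genes 5.48% were called lower and 12.4% higher. The median of the list was -1.36, against 0.02 over all genes. Without the first or the second unfractionated array 7 and 6 were called lower, and with array weights 6. Of all 224 tested genes annotated as long noncoding RNA, 27 were lower and 3 higher (0 higher without the second polysome array), with a median of -0.34. ND5, a complex I subunit translated on ribosomes inside the mitochondrion, read 3038, 2022, 156 and 503, a difference of -3.06 ± 0.67. Untreated wild-type liver gave -4.56 for ND5, -2.69 for Malat1 and -2.77 for Neat1, so these RNAs stood lower in polysome RNA there too.

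Across all genes, limma called 1351 of 10916 (12.4%) higher in polysome RNA and 598 (5.48%) lower, in all 17.9% of those tested. These shares are the background for the list counts below. The arrays of the 2 fractions did not overlap for any of the called genes, whereas over all genes 30.4% had polysome arrays above and 23.1% below both unfractionated arrays. At least 2-fold differences were found for 947 of the genes called higher and 405 of those called lower. Without the second polysome array, 929 of the 1351 and 395 of the 598 were still called. Without the first or the second unfractionated array limma called 708 and 636 genes higher and 244 and 215 lower. The split between higher and lower depends on the scaling: with each array centred on the median of the tested genes, 850 were higher and 1035 lower, and the median difference over all genes moved from 0.02 to -0.20.

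Among named genes, the 12 largest increases began with Rc3h2 and ended with Onecut2. Rc3h2, an RNA-binding ubiquitin ligase of the Roquin family on chromosome 2, read 46.3 and 46.0 in unfractionated and 482 and 471 in polysome RNA, a log2 difference of 2.99 ± 0.30 (limma adjusted p = 0.000135). Cpeb4, which binds polyadenylation elements in the cytoplasm, read 184 and 208 against 1341 and 1288 (2.65 ± 0.31). Ago2, the Argonaute protein that cleaves RNA targets of small RNAs, read 17.1 and 8.37 against 133 and 180 (2.59 ± 0.34), with 1 unfractionated array under the absent spike-in level. On the probe sets kept for these genes, both polysome arrays lay several fold above both unfractionated ones. When every probe set was tested, other probe sets gave 2.49 for Cpeb4 and 1.43 and 1.85 for Ago2, which were called higher. Others gave 0.60 for Rc3h2, 0.59 for Cpeb4 and 0.91 for Ago2, and were not called.

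The kinases Hipk3, Dyrk2 and Hipk2 were also among the 12. Hipk3 read 340 and 290 in unfractionated and 1832 and 1982 in polysome RNA (2.54 ± 0.22, adjusted p = 5.54e-05 in limma). Dyrk2 read 97.2, 147, 510 and 1112 (2.50 ± 0.40) and Hipk2 read 27.7, 69.1, 299.8 and 356 (2.49 ± 0.50). Large too were the increases of the heparan sulfate sulfatase Sulf2 (2.73 ± 0.35) and the focal adhesion protein Lpp (2.71 ± 0.36). The microtubule adaptor Hook3 (2.59 ± 0.35), the cytoskeletal linker Dst (2.49 ± 0.39) and the transcription factor Onecut2 (2.48 ± 0.43) followed. When every probe set was tested, the others of Lpp, Dst and Onecut2 were called higher too. Those of Sulf2 were not called (0.02 and 0.66), the first reading 66.2, 51.2, 52.5 and 66.8. Those of Hook3 gave 1.62, which was called, and 0.50 and -0.17, which were not. For Hipk2 they gave 2.69, which was called, and 1.08, 0.35, -0.50, 0.65 and 1.69, which were not. The other probe sets of Dyrk2 gave 1.84, which was called, and 0.23, which was not, and that of Hipk3 gave 0.75 and was not called. Wdtc1, a WD-repeat protein, lay under the absent spike-in level on both unfractionated arrays (8.49 and 14.7) and read 90.4 and 295 in polysome RNA, at least 10.8-fold higher (adjusted p = 0.0011).

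**Figure D1:**
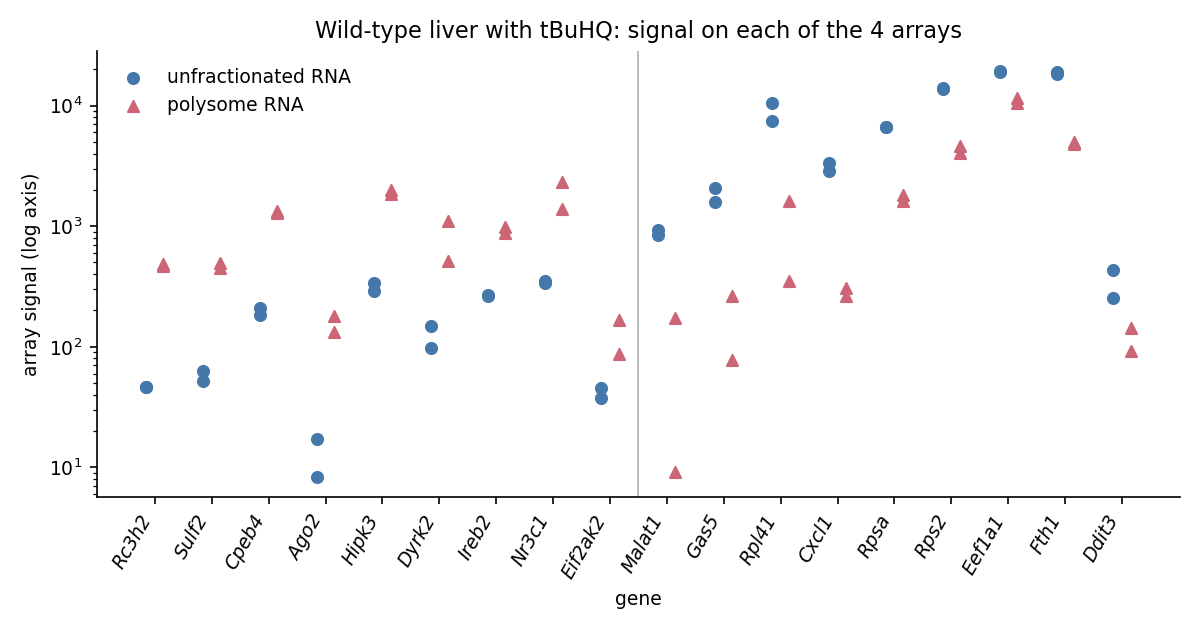
Signal of 18 genes on each of the 4 arrays of tBuHQ-treated wild-type liver, on a log axis, with unfractionated RNA as circles and polysome RNA as triangles. The 9 genes on the left read higher and the 9 on the right lower on both polysome arrays, from 46.3 and 46.0 to 482 and 471 for Rc3h2 and from 19096 and 18261 to 4994 and 4809 for Fth1.

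The mRNAs of the ribosome itself were lower in polysome RNA almost without exception. Cytosolic ribosomal proteins are encoded by mRNAs that begin with a tract of pyrimidines, the 5' terminal oligopyrimidine (TOP) tract, through which their translation is lowered when mTOR signalling is low. Of 82 listed ribosomal protein genes 44 were tested, 36 had no probe set of their own symbol and 2 lay below the filter. Of the 44, 39 were lower and 0 higher, against 5.48% and 12.4% of all genes, and all 44 differences were negative, from -3.51 to -0.59 with a median of -1.43. The 5 not called were Rps27 (-0.80), Rps27l (-1.48), Fau (-0.87), Rpl37 (-1.42) and Rpl39 (-0.59).

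Rpsa, a small-subunit protein, read 6682 and 6679 in unfractionated and 1820 and 1628 in polysome RNA (-1.95 ± 0.19, adjusted p = 0.000135 in limma). Rps2 read 13889 and 13631 against 4640 and 4019 (-1.67 ± 0.17), and Rplp0, of the ribosomal stalk, read 9341 and 9085 against 2850 and 2433 (-1.80 ± 0.20). The replicates of either fraction lay close together for these genes and far from the other fraction. Rps19 read 4661, 3816, 627 and 842 (-2.51 ± 0.28), and Rpl41, which encodes the smallest ribosomal protein, read 10433, 7492, 354 and 1629 (-3.51 ± 0.72). Ribosomal protein genes have many processed copies in the genome, and 14 of the 44 were read from probe sets whose suffix marks possible matches to other transcripts. Of these 13 were lower, as were 26 of the 30 on other probe sets.

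The other listed TOP mRNAs encode translation factors and RNA-binding proteins. Of 16 tested, 9 were lower and 0 higher, with a median of -0.84. The elongation factor Eef1b2 read 4437 and 4681 in unfractionated and 1059 and 1263 in polysome RNA (-1.96 ± 0.22). Tpt1, the translationally controlled tumour protein, read 20176, 19117, 7169 and 9334 (-1.26 ± 0.17), and Pabpc1, the cytoplasmic poly(A)-binding protein, read 4019, 4100, 2104 and 2328 (-0.87 ± 0.20). Eef1a1, the elongation factor that brings aminoacyl-tRNA to the ribosome, read 19062, 19313, 11464 and 10578 (-0.80 ± 0.15). Quantile normalization, which equalises the range of the arrays, left 28 of the 44 ribosomal protein genes and 5 of the 16 other TOP mRNAs lower (4 of the 16 without either unfractionated array), and Eef1a1 at -0.22 with an adjusted p of 0.229 in limma.

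Sequences near the annotated starts of named TOP genes are shown because the tract gives the group its name. The RefSeq promoter table (build GRCm38.p6) was searched for a run of at least 8 pyrimidines (C or T). The search covered 50 bases on either side of each annotated start, on the coding strand, which reads like the RNA. Capitals mark the longest such run, within 30 bases written 5' to 3'.
Rpl41, chr10:128549119-128549148, minus strand: cgccattaaatagcagtaggCCTCCCTCTC
Rps2, chr17:24720083-24720112, plus strand: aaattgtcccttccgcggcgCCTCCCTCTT
Eef1a1, chr9:78481710-78481739, minus strand: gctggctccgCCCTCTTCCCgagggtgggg
Eif3f, chr7:108934404-108934433, plus strand: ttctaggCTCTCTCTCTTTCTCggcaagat
Eif3f encodes a subunit of the initiation factor eIF3 and read 2463, 2220, 1134 and 959 (-1.15 ± 0.24). The runs of Rpl41 and Rps2 began 41 bases into the annotated transcript, counted from 1 at its start. Both reach the edge of the 50-base window, so they may be cut short by the search. Those of Eef1a1 and Eif3f began upstream of the start, at -5 and -4. Rps19 had a run of 13 bases, not printed here, that began at -45. No run was found in this window for Rpsa, Rplp0, Eef1b2, Tpt1 or Pabpc1.

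Of the 44 tested ribosomal protein genes 39 were in the promoter table, and 33 of them (84.6%) had such a run, as did 6 of 11 other TOP genes (54.5%) and 39.3% of all 27025 genes of the table. The run was present in 28 of 34 ribosomal protein genes that were lower and in all 5 that were not called. Among all tested genes with an entry, 36.8% had a run, as did 43.6% of those lower and 40.8% of those higher in polysome RNA. A match is a description of letters near an annotated start and not of a measured 5' end.

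Fth1, which encodes the heavy chain of the iron store ferritin, was among the most precise decreases. It read 19096 and 18261 in unfractionated and 4994 and 4809 in polysome RNA, a difference of -1.93 ± 0.16 (limma adjusted p = 5.54e-05). Its mRNA carries an iron-responsive element in the 5' leader, to which iron regulatory proteins bind and block initiation when iron is scarce. Of 11 tested iron genes 4 were lower and 2 higher, counts that fell to 1 and 1 without either unfractionated array and with array weights. Quantile normalization left 2 lower and 2 higher. Lower too were the iron exporter Slc40a1 (1545, 1533, 896 and 887, a difference of -0.78 ± 0.21) and Alas2, the erythroid enzyme of heme synthesis (-0.82 ± 0.26), both with such an element in the 5' leader, and the iron hormone Hamp (-0.81). Ireb2, which encodes iron regulatory protein 2, read 268, 264, 879 and 987 (1.75 ± 0.21), and Epas1, which encodes the hypoxia factor HIF-2 alpha and has the element in its 5' leader as well, read 807, 731, 1325 and 1599.9 (0.91 ± 0.25). A dimmer probe set of Epas1 went the other way and was called lower when every probe set was tested (109.6, 103, 65.4 and 41.7, a difference of -0.83, limma adjusted p = 0.0454), so its probe sets disagree. In untreated wild-type liver the signs were the same for all of these but Epas1, with Fth1 at -1.29 and Epas1 at -0.51.

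Genes of the integrated stress response showed no common direction. The mRNA of PERK itself, Eif2ak3, read 131 and 130 in unfractionated and 216 and 111 in polysome RNA (0.23 ± 0.35, adjusted p = 0.697), and 26.3 to 49.2 on the 8 knockout arrays. The sources used here do not say if this probe set reads deleted exons. Atf4 read 1764, 2127, 1799 and 1634 (-0.17 ± 0.26, adjusted p = 0.691), so the fractions overlapped. Ppp1r15a, which encodes the stress-induced eIF2 phosphatase subunit GADD34, read 437, 413, 373 and 217 (-0.55 ± 0.49, limma adjusted p = 0.482).

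Ddit3, which encodes CHOP, read 251 and 432 in unfractionated and 144 and 93.0 in polysome RNA. It was lower by limma (-1.39 ± 0.33, adjusted p = 0.00991), and without the second polysome array the difference of -1.11 had an adjusted p of 0.0529. Of 18 tested mRNAs with regulatory upstream reading frames, 6 were higher (33.3%) and 1, Ddit3, lower (5.56%), beside 12.4% and 5.48% of all genes. Those higher were Ibtk (271, 222, 628 and 725, a difference of 1.40 ± 0.23), the antizyme inhibitor Azin1 (462, 435, 1051 and 1086, 1.22 ± 0.23), the constitutive eIF2 phosphatase subunit Ppp1r15b (258, 266, 601 and 936, 1.46 ± 0.33), the glutamyl-prolyl-tRNA synthetase Eprs (1.10 ± 0.31), Cebpa (0.91) and Bace1 (1.62). Other probe sets of Ibtk (230, 233, 569 and 0.98, a difference of -1.31) and Azin1 were not called. Those of Azin1 read 584, 575, 1017 and 384 (0.11) and 181, 173, 425 and 4.73 (-1.01). On each the first polysome array lay above both unfractionated arrays and the second below. Other probe sets of Eprs gave 1.18, which was called, and 0.57, which was not. The list median was 0.08, beside 0.02 over all genes. Without the second polysome array 5 were higher and 0 lower. Without the first or the second unfractionated array 3 and 2 were higher, and with array weights 3.

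Of 28 tested targets of ATF4 and CHOP, 2 were higher and 2 lower, with a median of -0.31, and without the second polysome array or the second unfractionated array 0 were called either way. The 2 called each way are 7.14% of the list, beside 12.4% higher and 5.48% lower over all genes. The growth-arrest gene Gadd45a read 593, 1378, 329 and 229 (-1.66 ± 0.46). The amino acid transporter Slc38a2 read 403, 506, 763 and 908 (0.86 ± 0.24). Another probe choice matters for Slc38a2: another probe set was called lower (-1.27, limma adjusted p = 0.0462), and the mean of its probe sets gave -0.20. The mitochondrial carboxykinase Pck2 was higher at 1.27 ± 0.39, with 1 unfractionated array at 6.98. Of 13 eIF2 kinases, phosphatase subunits and stress sensors, 4 were higher (30.8%) and 0 lower, beside 12.4% and 5.48% of all genes. They were the RNA-activated kinase Eif2ak2 (45.8, 37.3, 167 and 87.7, a difference of 1.26 ± 0.28), the amino acid sensor Eif2ak4 (1.03 ± 0.32), the membrane-bound factor Atf6 (1.21 ± 0.36) and Ppp1r15b. Without the first or the second unfractionated array 1 and 0 were higher. Without the first polysome array 2 were higher and 3 lower, with array weights 2 were higher, and with centred arrays 2 were higher and 2 lower.

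Chaperones and folding enzymes of the endoplasmic reticulum were mostly negative. Of 23 tested, 4 were lower (17.4%) and 2 higher (8.70%), beside 5.48% and 12.4% of all genes. Of the differences 20 were negative, and the median was -0.74, beside -0.78 in untreated wild-type liver. The count of lower genes was 1 without the second unfractionated array and with array weights, 6 without the first unfractionated or the first polysome array, and 10 with centred arrays, and that of higher genes was 0 to 2. The prolyl isomerase Ppib read 4179 and 7231 in unfractionated and 1980 and 2357 in polysome RNA (-1.34 ± 0.30), and the disulfide isomerase Pdia3 read 2461, 4496, 1333 and 1112 (-1.44 ± 0.38). Hspa5, the chaperone BiP, read 4981, 9414, 4354 and 4561 (-0.62 ± 0.25, adjusted p = 0.104 in limma), and Xbp1 read 5059, 6563, 4702 and 2194 (-0.84 ± 0.31, limma adjusted p = 0.0810), neither of which passed. For Hspa5, Ppib and Pdia3 the second unfractionated array read well above the first.

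Within the machinery of translocation and degradation at the endoplasmic reticulum, 7 of 34 genes were lower and 1 higher, with a median of -0.44. The 7 became 1 without the second unfractionated array, 4 without the first polysome array, 10 without the second and 3 with array weights. The degradation factor Derl2 read 1914, 2491, 1103 and 766 (-1.23 ± 0.24), and the signal peptidase subunit Sec11a read 1810.2, 2702, 929.96 and 825 (-1.32 ± 0.28). Higher was Edem3, a mannosidase-like degradation factor, which read 86.0, 116, 306 and 348 (1.56 ± 0.31). Its partner in the same process Sel1l, in the chaperone list, read 169, 257, 613 and 808 (1.68 ± 0.39). When every probe set was tested, the others of Sel1l (0.66, 1.09, 0.07 and -0.39) and of Derl2 (0.02) were not called.

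**Figure D2:**
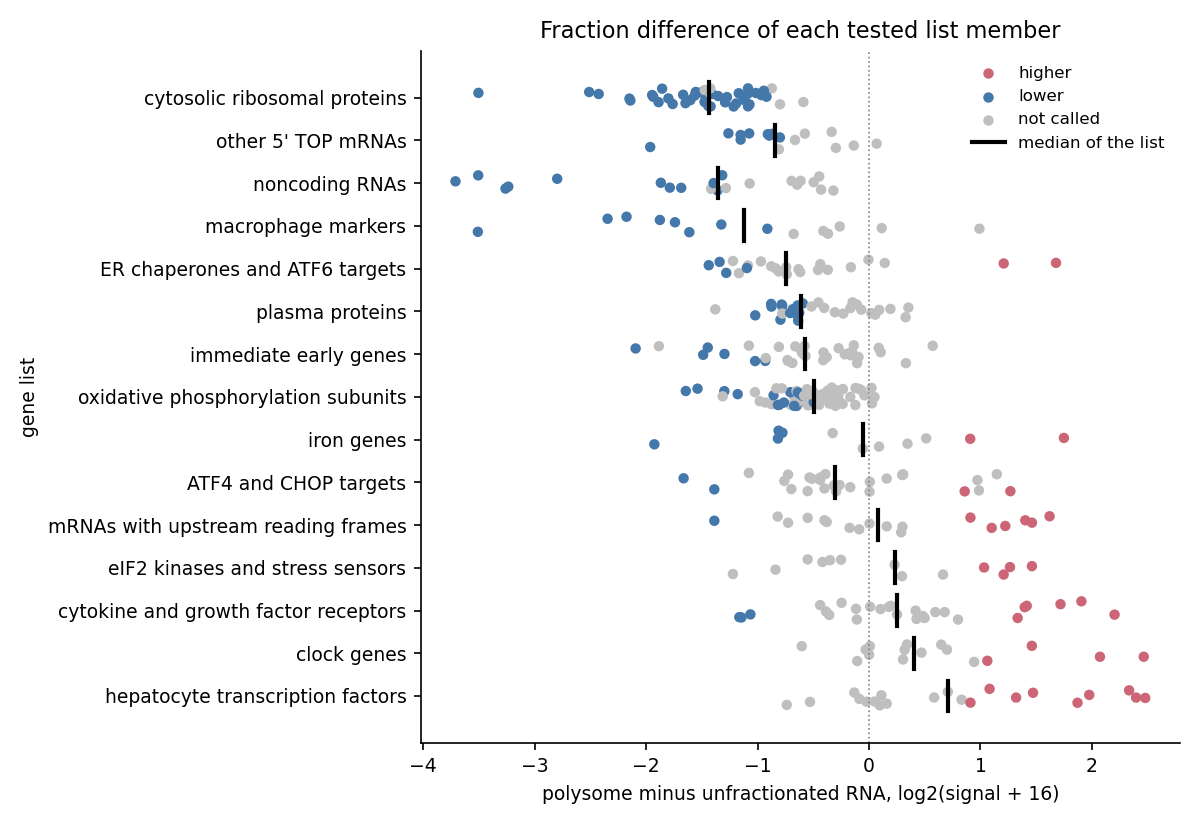
Log2 difference between polysome and unfractionated RNA for each tested member of 15 gene lists, coloured by limma's call, with the median of the list as a black bar. The medians run from -1.43 for ribosomal proteins to 0.71 for hepatocyte transcription factors, and members of either direction stand side by side in most lists.

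Transcription factors of the hepatocyte stood at the other end. Of 21 tested, 9 were higher and 0 lower, with a median of 0.71. The glucocorticoid receptor Nr3c1 read 351 and 335 in unfractionated and 1382 and 2329 in polysome RNA (2.33 ± 0.29, limma adjusted p = 0.000338). Ppara, the fatty acid receptor of fasting, read 399, 243, 1919 and 1523 (2.40 ± 0.34), the oestrogen receptor Esr1 read 154, 194, 703 and 648 (1.87 ± 0.26), and Hnf4a read 1266, 1154, 3045 and 3037 (1.32 ± 0.29). Another Hnf4a probe set was called higher too (1.81), while others gave -0.13 and -1.05 and were not called. On these the second polysome array lay below both unfractionated arrays. Rxra (1.47), Prox1 (1.98), Nr5a2 (1.08), Cebpa and Onecut2 were the other higher genes. The count was 9 without the second polysome array, 8 with quantile normalization and 4 without the second unfractionated array, and 7 or 8 without either of the other arrays.

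Of 16 tested clock genes 4 were higher (25%) and 0 lower, beside 12.4% and 5.48% of all genes, with a median of 0.41. Rora, a nuclear receptor that activates Bmal1, read 153, 179, 729 and 1331 (2.47 ± 0.34), and Clock read 69.9, 109, 439 and 402 (2.07 ± 0.30). The repressor Nr1d2 was higher at 1.06 ± 0.25, and Per2 at 1.46 ± 0.43, from unfractionated signals of 3.11 and 16.6 near the absent spike-in level. Of 27 tested cytokine and growth factor receptors, 6 were higher (22.2%) and 3 lower (11.1%), beside 12.4% and 5.48% of all genes. Without the first or the second unfractionated array 2 and 3 were higher and 1 was lower, and without the second polysome array 6 and 1. The insulin receptor Insr read 78.1, 87.4, 379.7 and 329 (1.91 ± 0.35), the hepatocyte growth factor receptor Met read 223, 204, 579.6 and 613 (1.42 ± 0.28), and Tgfbr1 read 61.4, 109.6, 194 and 305 (1.40 ± 0.29). The interferon receptor chain Ifnar2 read 1262, 1468, 559 and 658 (-1.15 ± 0.21) and was lower.

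Of 34 tested immediate early genes, 6 were lower (17.6%) and 0 higher, beside 5.48% and 12.4% of all genes, with a median of -0.57. Ccn1, a matrix protein, read 544, 1057, 321 and 211 (-1.49 ± 0.31), and Gadd45b read 471, 981, 333 and 60.2 (-2.09 ± 0.54). Of the 34, 1 was called lower without the second polysome array, 0 without the second unfractionated array, 4 without the first, 10 without the first polysome array, 2 with array weights and 12 with centred arrays. The neutrophil chemokine Cxcl1 read 3355 and 2869 in unfractionated and 265 and 308 in polysome RNA (-3.37 ± 0.53). Cxcl2, of the same family, read 229 and 209 and lay under the absent spike-in level on both polysome arrays (5.62 and 11.7), at least 14.5-fold lower (limma adjusted p = 0.00026). Among metabolic genes, of 15 gluconeogenesis and fasting genes 3 were higher (Ppara, Foxo1 at 1.68 ± 0.30 and Cpt1a at 1.04 ± 0.32) and 2 lower, with Igfbp1 at -1.32 ± 0.33, and of 17 lipogenic genes 1, Acly (1.08 ± 0.24), was higher. Without the second unfractionated array 2 and 0 of the 15 were higher and lower and 0 of the 17 was called.

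Plasma protein mRNAs include many of the brightest on these arrays. Of 32 tested, 15 were lower, 0 higher and 17 not called, with a median of -0.61 and 6 positive differences. Alb, albumin, read 23400 and 22518 in unfractionated and 16040 and 13484 in polysome RNA (-0.64 ± 0.15, limma adjusted p = 0.00979), and Apoc3 read 18372, 17717, 10919.6 and 11549 (-0.68 ± 0.14). Apob, the large apolipoprotein, read 983, 994, 1148 and 1350.1 (0.33 ± 0.51, adjusted p = 0.703). These signals lie near the upper end of the arrays, whose maximum was lower in polysome RNA, and with quantile normalization 0 of the 32 were called and the median was -0.03, with Alb at 0.047. The count was 7 without the second polysome array, 6 without either unfractionated array and 8 with array weights.

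The subunits of oxidative phosphorylation also depended on the scaling. Of these, 16 of 71 were lower and 0 higher, with a median of -0.50, and quantile normalization left 2 lower and 1 higher and a median of -0.07. Ndufa1, of complex I, read 8069, 8165, 2332 and 4640 (-1.30 ± 0.29), and the ATP synthase subunit Atp5g2 read 3992, 3245, 1608 and 937 (-1.54 ± 0.31). Of the 71, 4 and 6 were lower without the first or the second unfractionated array, 9 and 27 without the first or the second polysome array, and 8 with array weights. In untreated wild-type liver the median of these 71 genes was 0.22. Of 75 mitochondrial ribosomal proteins 4 were lower (5.33%, beside 5.48% of all genes), 0 without either unfractionated array and with array weights, and 9 without the second polysome array. Of 40 proteasome genes 1 was higher and 0 lower, the higher one being the activator Psme4 (1862, 1657, 3608 and 3379, a difference of 0.98 ± 0.21), and 7 were lower with centred arrays and 11 without the first polysome array. Of 30 cytochrome P450 enzymes 1, Cyp2e1 (-0.59 ± 0.16), was lower, 7 with centred arrays or without the first polysome array, and 0 without any other array. Of 21 metallothioneins and NRF2 targets 5 were lower, among them Mt2 (4221, 4007, 1490 and 1176, -1.62 ± 0.41) and the heme oxygenase Hmox1 (294, 286, 135 and 132, -1.03 ± 0.29). The count was 1 both without the second polysome array and with quantile normalization, and 0 without either unfractionated array. Of 18 selenoproteins, 4 were lower, among them the glutathione peroxidase Gpx1 (-0.66 ± 0.14) and Selenow (-2.05 ± 0.56), with 1 under quantile normalization or without the second unfractionated array, 2 without the first and 7 without the second polysome array.

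Several lists had few members called. Of 29 initiation factors 2 were higher and 3 lower, and 1 and 0 without either unfractionated array. The 2 higher and 3 lower were 6.90% and 10.3% of the list, beside 12.4% and 5.48% of all genes. The scaffold Eif4g3 read 191, 181, 421 and 593 (1.35 ± 0.26). Eif4ebp2, the mTOR-regulated inhibitor of eIF4E, read 1021, 967, 245 and 626 (-1.30 ± 0.35). Of 32 splicing regulators 4 were higher (12.5%, beside 12.4% of all genes) and 1 lower, or 6 and 4 without the first polysome array, with Srrm2 (1044, 914, 2983 and 3040, 1.61 ± 0.23) and Son (571, 430.4, 1475 and 1983, 1.75 ± 0.26), both scaffolds of nuclear speckles, the highest. Of 7 polyamine genes 2 were called. Oaz1, the antizyme made by a frameshift that polyamines promote, was lower at -0.74 ± 0.18. Its inhibitor Azin1 was higher on the probe set kept. Of 19 heat shock genes Bag3 (1.29 ± 0.31) was higher, of 19 aminoacyl-tRNA synthetases Eprs, and of 10 calcium pumps and channels the calcium release channel Itpr2 (1.29 ± 0.28). Of 18 cholesterol synthesis genes Lss was higher (0.97 ± 0.29) and Fdps lower (-1.10 ± 0.30), and of 9 histones 0 were called. Without the second unfractionated array 0 of the heat shock, synthetase, calcium and cholesterol genes were called.

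Markers of other liver cells were counted too. Macrophage markers were mostly lower, with 8 of 14 lower and 0 higher and a median of -1.12, beside -1.35 in untreated wild-type liver. Without the first unfractionated array 5 were lower and 1 higher, and without any other array 6 to 9 were lower. The complement genes C1qc (575, 417, 87.0 and 80.2, a difference of -2.35 ± 0.24) and C1qb (741, 482, 163 and 140.4, -1.88 ± 0.25) were lower, as was the complement receptor Vsig4 (924, 630.1, 110.4 and 219, -2.18 ± 0.36), while the receptor Csf1r stood at 0.11 and the pore protein Mpeg1 at 0.99. C1qa read 704 and 422 in unfractionated and 115 and 2.48 in polysome RNA (-3.51 ± 0.60). Its second polysome array lay under the absent spike-in level, and without that array the difference was -2.09. Tyrobp, an immune signalling adaptor, read 550, 232, 34.3 and 36.5 (-2.87 ± 0.38). In bulk RNA, fewer cells of a type and less RNA per cell cannot be told apart, and here each cell type enters both fractions of a condition. Of 14 endothelial markers 2 were lower (Egfl7 and Gpr182) and 1 higher (Ptprb, 1.37 ± 0.44), of 12 stellate cell and fibroblast markers 1 was lower (the proteoglycan Dcn, -1.50 ± 0.34), and of 8 hepatocyte markers 4 were lower and Hnf4a higher. Of the hepatocyte markers 1 and 2 were lower without the first or the second unfractionated array, 2 without the second polysome array and 0 with quantile normalization. The call of Ptprb was lost without any 1 of the 4 arrays. Of 9 pancreatic markers, 3 cholangiocyte, 2 neutrophil and 1 lymphocyte markers 0 were called.

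Long genes stood higher in polysome RNA than short ones. Over 10607 protein-coding genes, the median log2 difference over 5 equal groups of rising genomic span was -0.32 in the shortest (0.438 to 8.12 kb), then -0.12, 0.02 and 0.24, and 0.48 in the longest (66.9 kb and more). In the shortest group 1.98% were called higher and 12.1% lower, and in the longest 28.5% and 1.13%, against 12.4% and 5.48% over all genes. As a description across genes, which are not independent replicates and share the 4 arrays, Spearman's rho was 0.41 (n = 10607), and 0.27, 0.45 and 0.46 among genes of low, middle and high signal. Without the second polysome array rho was 0.38. Span counts introns and is not the length of the mRNA or of its coding sequence.

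The same order held in 2 of the other conditions, measured on arrays of their own. The medians of the 5 groups ran from -0.08 to 0.20 in tBuHQ-treated knockout liver and from -0.11 to 0.27 in untreated knockout liver, while in untreated wild-type liver all 5 lay between -0.02 and 0.02. Among the genes named above, Rpl41 spans 1.06 kb, Rps19 5.22 kb and Fth1 4.51 kb, and Rc3h2 spans 55.5 kb, Hipk3 68.0 kb and Dst 401 kb. These are examples, and other named genes went against the order. Vsig4 (46.2 kb) and Ifnar2 (32.8 kb) were lower, and Ppp1r15b (8.6 kb) and Pck2 (9.8 kb) were higher.

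**Figure D3:**
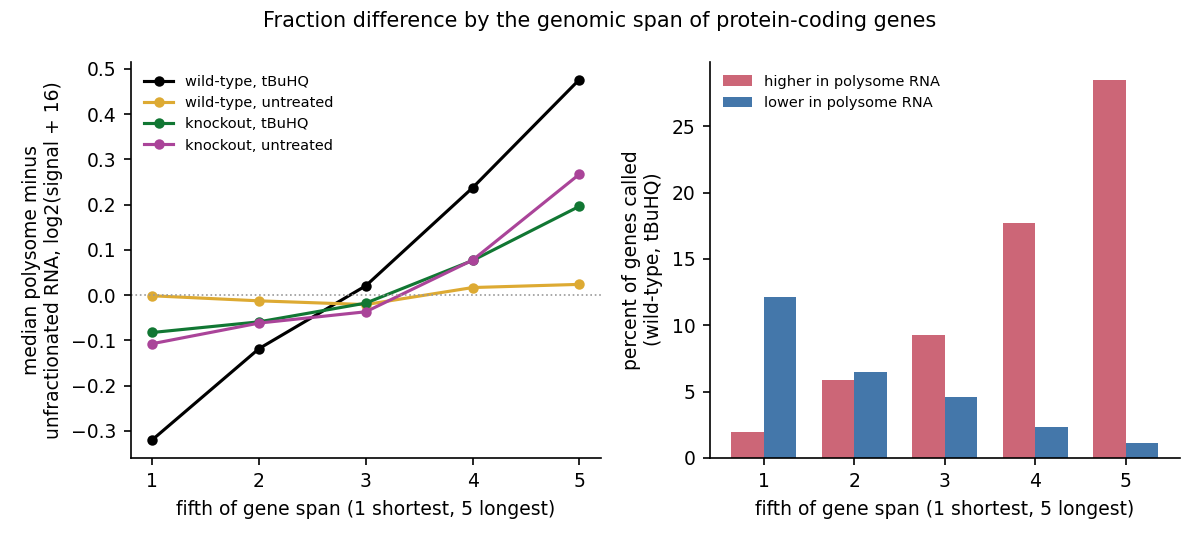
Left, median log2 difference between polysome and unfractionated RNA in 5 equal groups by the genomic span of protein-coding genes, for the 4 conditions. Right, the percent of genes of each group called higher or lower in tBuHQ-treated wild-type liver, from 1.98% and 12.1% in the shortest to 28.5% and 1.13% in the longest.

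The fraction difference was then set against that of the other 3 conditions, which share no array with it. Across all genes the correlation of the log2 differences, a description over 10916 genes that differ in signal level and share the scaling of the arrays, was 0.27 with untreated wild-type, 0.60 with tBuHQ-treated knockout and 0.61 with untreated knockout liver. The SD of the differences was 0.71 here and 0.46, 0.47 and 0.62 in those conditions. The same fit called 2 genes higher (0.0183%) and 75 lower (0.687%) in untreated wild-type liver, in all 0.705%. It called 26 (0.238%) and 58 (0.531%) in tBuHQ-treated knockout liver, in all 0.77%, and 746 (6.83%) and 447 (4.09%) in untreated knockout liver, in all 10.9%. Of the 1351 genes higher in tBuHQ-treated wild-type liver, 75.4%, 92.7% and 91.1% had a positive difference in the other conditions, where 50.1%, 50.9% and 50.8% of all genes did. Of the 598 lower genes, 81.1%, 89.1% and 83.8% had a negative difference, where 49.9%, 49.1% and 49.2% of all genes did. Ribosomal proteins had medians of -0.67, -1.13 and -0.96 there, beside the -1.43 here, and noncoding RNAs -0.81, -0.96 and -1.17 beside -1.36.

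The median signal of the called genes shows on which arrays the difference lay. For the 1351 higher genes it was 129 and 130.5 on the unfractionated and 327 and 341 on the polysome arrays of tBuHQ-treated wild-type liver. Untreated wild-type unfractionated arrays read 230.3 and 245, tBuHQ-treated knockout ones 214 and 142, and untreated knockout ones 138 and 145. All other polysome arrays lay between 254 and 292. For the 598 lower genes the unfractionated arrays read 618 and 623 here and 439 to 483 elsewhere, and the polysome arrays 216 and 224 here and 280.2 to 371 elsewhere. These genes were chosen on the 4 arrays of the comparison, so their distance there is fixed by the choice.

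**Figure D4:**
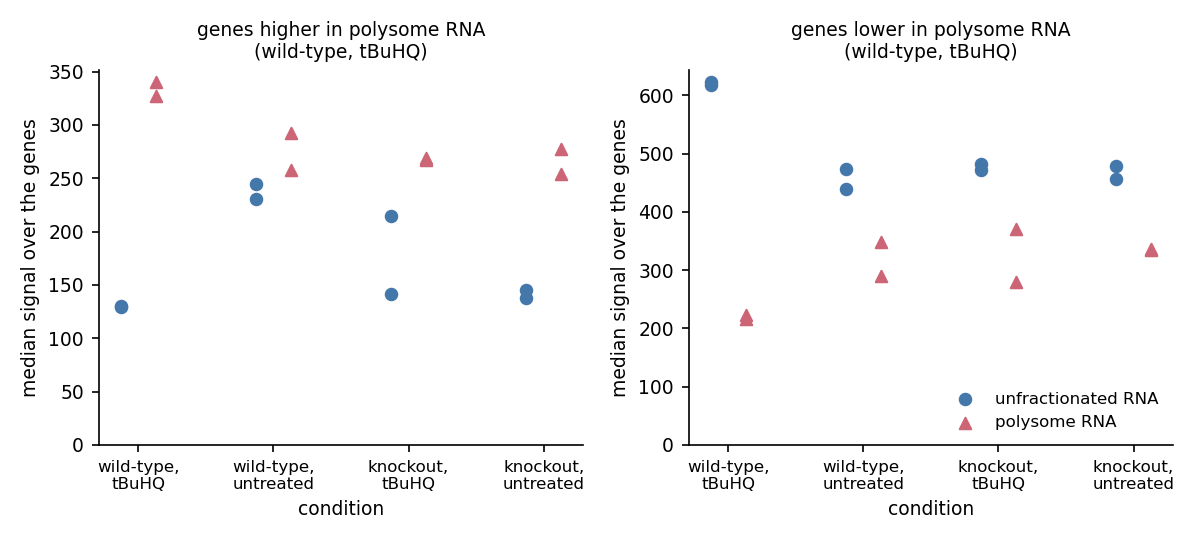
Median signal over the 1351 genes higher (left) and the 598 genes lower (right) in polysome RNA of tBuHQ-treated wild-type liver, on each of the 16 arrays, with circles for unfractionated and triangles for polysome RNA. In the left plot the unfractionated arrays read 230.3 and 245 in untreated and 129 and 130.5 in tBuHQ-treated wild-type liver. The genes were chosen on the tBuHQ-treated wild-type arrays, so the wide distance between the fractions there is fixed by the choice.

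Whether the fraction difference itself differed between tBuHQ-treated and untreated wild-type liver was tested in the same fit. The test by limma called 33 genes (0.302%), 30 with a more positive (0.275%) and 3 with a more negative (0.0275%) difference with tBuHQ. Of the 33, 26 were also called higher in the comparison of fractions above. Both tests use the same tBuHQ-treated wild-type arrays, so this overlap is not independent support. At an unadjusted p under 0.05 there were 2079 genes. The adjusted p of the named ones lay between 0.0478 and 0.0481, close to the threshold of 0.05, and 0 were called with quantile normalization, with array weights, or without any 1 of the untreated wild-type or tBuHQ-treated unfractionated arrays. Without the first or the second tBuHQ-treated polysome array, 244 and 239 genes were positive and 164 and 336 negative.

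Rc3h2 read 315 and 346 in unfractionated and 442 and 360.03 in polysome RNA of untreated wild-type liver, and 46.3, 46.0, 482 and 471 with tBuHQ. The difference of the differences was 2.72 ± 0.42 (limma adjusted p = 0.0478), and the arrays that set it apart were the unfractionated ones. Ptprb, a phosphatase of endothelial cells, read 460.1 and 446 in unfractionated and 133 and 88.7 in polysome RNA without tBuHQ, and 38.8, 82.8, 151 and 200.2 with it (3.28 ± 0.63). The stellate cell glycoprotein Reln (3.02 ± 0.59), Ago2 (2.69 ± 0.48), the lymphatic and sinusoidal receptor Flt4 (2.59 ± 0.43) and Sulf2 (2.52 ± 0.49) were the next in size. Reln and Flt4 were not called between the fractions with tBuHQ (0.78 ± 0.41 and 0.81 ± 0.30). Sulf2 was called there, but only on the probe set kept. The untreated unfractionated arrays read 587 and 578 for Reln, and 169 and 165 for Flt4.

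The 3 negative genes were lower in polysome RNA with tBuHQ. Tmsb4x, the actin-binding thymosin beta 4, read 2606, 2231, 3940 and 1696 without tBuHQ and 5648, 3523, 484 and 767 with it, a difference of differences of -2.94 ± 0.55. Arf5, a GTPase of the Golgi, read 226, 139, 340.5 and 267 without and 318, 229.5, 99.0 and 85.6 with it (-2.12 ± 0.41). Sys1, a Golgi membrane protein, read 939, 989.5, 1511 and 919 without and 1509, 1294, 402 and 369 with it (-2.10 ± 0.37). For Arf5 and Sys1, on the probe sets kept, both tBuHQ-treated wild-type polysome arrays lay below all other arrays of the series. Other probe sets of Sys1 gave -0.42, -0.67 and -0.50 between the fractions with tBuHQ and were not called.

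**Figure D5:**
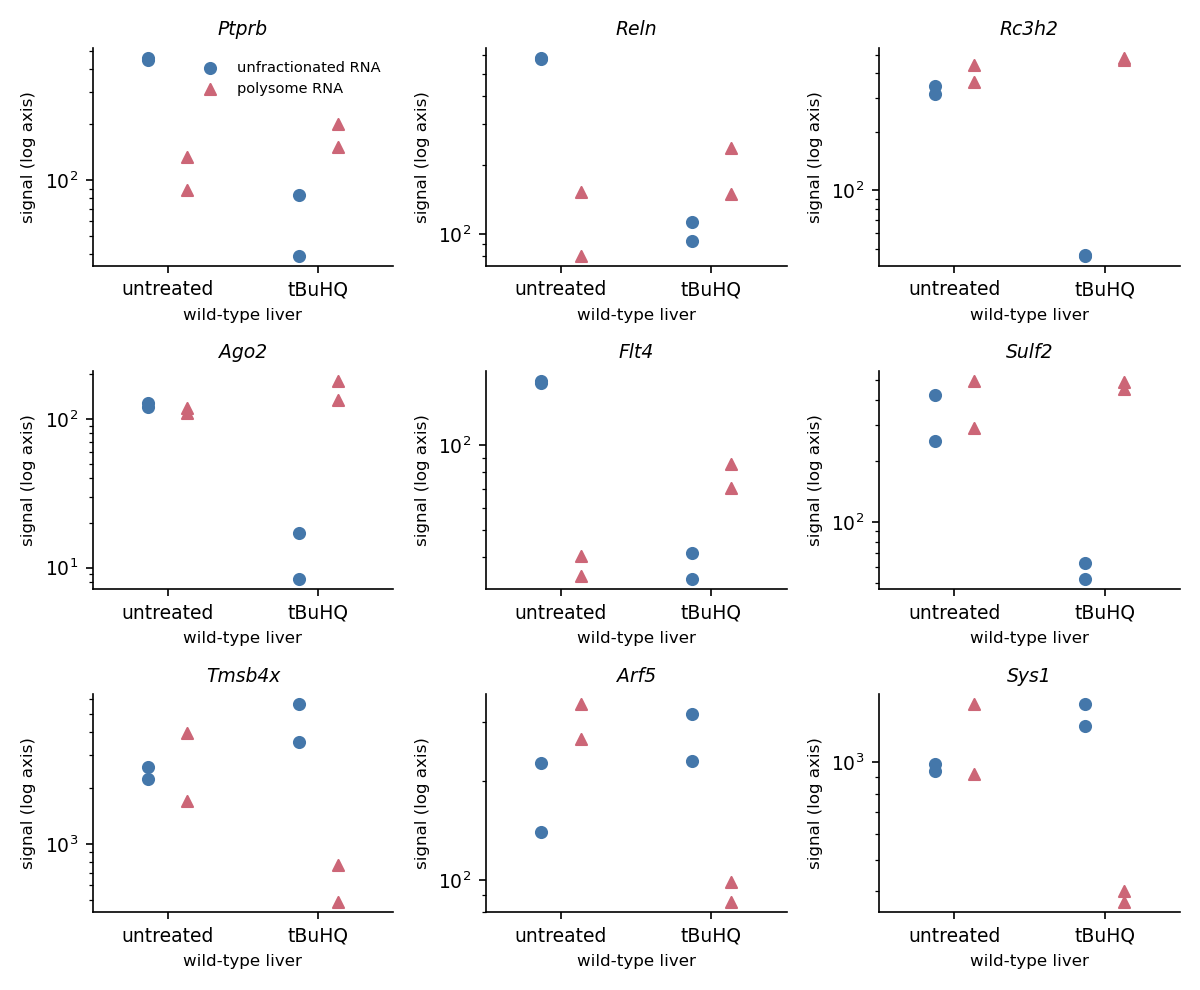
Signal on the 8 wild-type arrays, on log axes, of 9 genes whose fraction difference differed between untreated and tBuHQ-treated liver, with circles for unfractionated and triangles for polysome RNA. For Rc3h2 the unfractionated signal was 315 and 346 without and 46.3 and 46.0 with tBuHQ, and for Sys1 the polysome signal was 1511 and 919 without and 402 and 369 with it.

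Against tBuHQ-treated knockout liver limma called 0 genes, with 982 at an unadjusted p under 0.05, of which 653 were positive. The lowest p were those of Tnfrsf12a, a TNF receptor family member, Myrf, a membrane-bound transcription factor, and Fndc3a, all with an adjusted p of 0.501. Tnfrsf12a read 61.2 and 94.3 in unfractionated RNA with tBuHQ in wild-type liver, lay under the absent spike-in level on both polysome arrays (at least 5.04-fold lower), and read 3.64 and 6.11 in unfractionated RNA of tBuHQ-treated knockout liver. Fndc3a read 222, 321, 900.1 and 947 in wild-type and 475, 364, 370.3 and 451 in knockout liver with tBuHQ, a difference of 1.76 ± 0.35. Against the mean of the other 3 conditions limma called 0 genes as well, with 1885 at an unadjusted p under 0.05. The lowest p were those of Arf5 (-2.12 ± 0.34), Fndc3a (1.80 ± 0.29) and Sys1 (-1.84 ± 0.31), each with an adjusted p of 0.0739. Leaving out 1 array gave up to 13 positive and 124 negative genes against tBuHQ-treated knockout liver and up to 139 and 230 against the mean of 3, each time without the first tBuHQ-treated wild-type polysome array.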

How the data were processed

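Signal intensities of 45101 probe sets on 16 Affymetrix mouse arrays, deposited by the authors on a linear scale, were used. In the deposited values the 2%-trimmed mean of every array is 150. The sources used here do not name the summarisation software. A deposited table of z scores for part of the probe sets served as an alternative and as a check of labels. The platform annotation names 1 symbol for 34958 probe sets, more than 1 for 932 and no symbol for 9211. Through Entrez IDs, 34754 were brought to the names of the GRCm38.p6 gene table. The probe set with the highest mean per gene was kept, and means under the 40th percentile (22.2) were left out. The log2(signal + 16) values were fitted with limma 3.58.1 in R 4.3.3 (lmFit, eBayes with trend) as 8 group means over 16 arrays, with 8 residual and 6.42 prior degrees of freedom, and Benjamini-Hochberg adjustment within a contrast (threshold 0.05). The number of arrays, 2 a group, limits the precision, and p-values measure the spread between pools. The code was tested on simulated data. The members, the 39 gene lists and the tests were chosen with earlier results of these data known. Named genes were the 12 largest increases and decreases with non-overlapping arrays and no predicted name, up to 6 of each comparison with other conditions, up to 4 called members of each list (or 2 not called), and 14 genes fixed by name; others that complete a count were named after their values were seen. Same-numbered arrays of the groups correlated in their deviations by 0.0936, 0.119, 0.389 and 0.0881, so the numbers were not taken to pair them. Alternatives varied the pseudocount, the filter, the probe set, the scaling, the arrays and the model. Further ones were added after seeing the data: leaving out control probe sets and counting lists without the second polysome array.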

Additional observations from a re-analysis of the deposited data

Results flagged for a closer look

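Between tBuHQ-treated and untreated wild-type liver, limma's test of the fraction difference itself called 30 genes positive and 3 negative (0.302% of those tested). The adjusted p of those named lay between 0.0478 and 0.0481 in limma, close to the threshold of 0.05. With either quantile normalization, centring or array weights 0 were called. The same held with every probe set, the mean of probe sets, the replicate block and the arrays of the comparison alone. The named ones were Ptprb (3.28 on the log2 scale), Reln (3.02), Rc3h2 (2.72), Ago2 (2.69), Flt4 (2.59), Sulf2 (2.52), Tmsb4x (-2.94), Arf5 (-2.12) and Sys1 (-2.10). By the column names of the authors' deposited table every one of these values would turn its sign.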

How the results depend on the processing

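Between the fractions of tBuHQ-treated wild-type liver (1351 higher, 598 lower), counts stayed within 1.5 times with a pseudocount of 1 or 64, no filter on low signal, a mean of at least 100, every probe set, either quantile normalization, no intensity trend, and without control probe sets. The replicate block gave 1381 and 658. The mean of a gene's probe sets gave 715 higher, centring 850 and 1035, array weights 676 and 278, the 4 arrays alone 133 and 54, and the authors' z scores taken by column name, which then read the arrays titled untreated, 17 and 202. Leaving out 1 array gave 636 to 1203 higher and 215 to 837 lower. Without the first unfractionated array the counts were 708 and 244, without the second 636 and 215, without the first polysome array 1203 and 837 and without the second 1167 and 783.

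Against untreated wild-type liver (30 and 3), 0 and 0 were called with every probe set, the mean of probe sets, either quantile normalization, centring, array weights, the arrays of the comparison alone, the replicate block and the z scores. A pseudocount of 1 gave 15 and 1, no filter 0 and 1, and no trend 18 and 1. Leaving out 1 array gave 0 to 244 positive and 0 to 336 negative: 244 and 164 without the first tBuHQ-treated polysome array, 239 and 336 without the second, and 0 and 0 without any other of the 8. Against knockout liver with tBuHQ (0 and 0), the ranges were 0 to 13 and 0 to 124, with 13 and 124 without the first wild-type polysome array, 0 and 1 without the second and 1 and 0 without the second knockout unfractionated array. Against the other 3 conditions (0 and 0), they were 0 to 139 and 0 to 230, with 139 and 230 without the first wild-type polysome array, 41 and 209 without the second and 93 and 16 without the second tBuHQ-treated knockout unfractionated array, and the mean of probe sets gave 1 positive gene.

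Of the named genes' values under all alternatives, 2211 kept direction and call, 473 kept only direction, 13 became called and 33 turned sign. Quantile normalization turned Cyp2e1 to 0.037, Selenop to 0.026, Gstp1 to 0.042 and Alb to 0.047, and the mean of probe sets turned Slc38a2 to -0.20. The z scores by column name turned Hipk2 (-0.07), Tmsb4x (0.005), Ptprb (-0.90), Reln (-1.06), Flt4 (-0.915), Arf5 (0.39), Sys1 (0.115), Fndc3a (-0.125), Atp5g2 (0.015), Ndufa1 (0.15), Mrps11 (0.11), Mrpl4 (0.075), Mrpl57 (0.28), Ddit3 (0.205), Slc38a2 (-0.355), Sel1l (-0.38), Edem3 (-0.345), Acly (-0.03), Cpt1a (-0.08), Per2 (-0.055), Epas1 (-0.26), Mt2 (0.415), Atf6 (-0.215), Insr (-0.23), Met (-0.18), Tgfbr1 (-0.23), Hnf4a (-0.09) and Apob (-1.12). The cause was not tested, beyond the construction of each alternative. Gapdh was read from a 5' and Actb from a 3' control probe set, and Gapdh stood at -1.92 (limma adjusted p = 0.0469) with and -0.33 without the second polysome array. Dim signals near 15.1 give no exact sizes.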
